A study of Mus musculus with 18 samples.

Results

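Mature adipocytes from epididymal white adipose tissue (eWAT) were compared with brown adipose tissue (BAT) by RNA sequencing, across all genes that could be matched between the deposited tables. The comparison used 12 of the 18 samples of the series, the 6 named by their source as eWAT adipocytes and the 6 named as BAT tissue. All 12 came from wild type male mice of the C57BL/6J strain (given as C57BL/6 in the strain label), aged 16 weeks and kept on regular chow, with no drug or transgene in either group. The other 6 samples are mature adipocytes from inguinal white adipose tissue (iWAT), and their levels are given only beside results where they help. The eWAT samples were the washed floating layer of a collagenase digest, whereas BAT was snap-frozen and extracted as a whole, although its cell type label reads BAT adipocytes. Depot, way of preparation and kind of deposited table therefore differed together between the groups and cannot be told apart. The labels do not say that the samples of a group came from separate animals, so the p-values below measure the spread between these samples.

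The BAT tables held 52093 gene symbols, of which 50873 had a single locus row. For 43944 of these the eWAT tables held at least 1 transcript row, and the transcript with the most reads over the 6 eWAT samples was taken. Of these genes, 16898 had at least 10 reads in at least 6 of the 12 samples, and these were tested. Predicted, clone and read-through symbols made up 5200 of them, which left 11698 genes with a standard name.

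White adipocytes store triglyceride in a single large droplet, release fatty acids by lipolysis and secrete hormones such as leptin and adiponectin. Brown adipocytes hold many small droplets and densely packed mitochondria, and the carrier protein UCP1 lets protons back across the inner mitochondrial membrane so that fuel oxidation yields heat. Heat production in brown fat is switched on by noradrenaline through beta-adrenergic receptors and cyclic AMP, and the cells burn fatty acids and glucose supplied by the blood, by lipolysis and by fat made within the cell.

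The promoters of 5 genes, with the motif letters in capitals, show the sequence of 2 gene groups that lay on opposite sides of the comparison. Ndufb4, Sdha and Cox6a1 encode subunits of respiratory complexes I, II and IV and were higher in BAT. Each holds 2 or 3 matches to the site of nuclear respiratory factor 1 (NRF1), a factor that regulates many nuclear-encoded respiratory chain genes. Dusp1, a phosphatase that switches off MAP kinases, and Zfp36, which promotes decay of cytokine mRNAs, are immediate-early genes and were higher in eWAT. Dusp1 holds a cyclic AMP response element (CRE) and Zfp36 a CArG box, the site of serum response factor. Each sequence is the 250 bases before the RefSeq transcription start in build GRCm38.p6, written 5′ to 3′ along the gene, and all 5 genes lie on the minus strand. The windows are chr16:37654369-37654618 for Ndufb4, chr13:74350241-74350490 for Sdha, chr5:115348959-115349208 for Cox6a1, chr17:26508473-26508722 for Dusp1 and chr7:28379229-28379478 for Zfp36.
Ndufb4: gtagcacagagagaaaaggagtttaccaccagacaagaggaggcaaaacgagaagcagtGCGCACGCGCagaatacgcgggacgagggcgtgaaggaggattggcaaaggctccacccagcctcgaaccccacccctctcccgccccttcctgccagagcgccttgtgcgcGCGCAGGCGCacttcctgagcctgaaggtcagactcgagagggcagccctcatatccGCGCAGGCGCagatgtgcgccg
Sdha: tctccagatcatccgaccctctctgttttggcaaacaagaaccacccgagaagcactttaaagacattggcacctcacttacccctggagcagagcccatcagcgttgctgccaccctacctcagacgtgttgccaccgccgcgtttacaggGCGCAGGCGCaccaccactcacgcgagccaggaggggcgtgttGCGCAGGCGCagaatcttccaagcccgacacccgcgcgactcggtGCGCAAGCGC
Cox6a1: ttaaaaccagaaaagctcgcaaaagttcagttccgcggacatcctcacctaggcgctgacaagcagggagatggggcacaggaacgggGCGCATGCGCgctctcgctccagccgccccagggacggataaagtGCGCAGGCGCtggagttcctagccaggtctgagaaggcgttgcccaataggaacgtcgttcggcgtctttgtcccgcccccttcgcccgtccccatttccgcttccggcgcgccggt
Dusp1: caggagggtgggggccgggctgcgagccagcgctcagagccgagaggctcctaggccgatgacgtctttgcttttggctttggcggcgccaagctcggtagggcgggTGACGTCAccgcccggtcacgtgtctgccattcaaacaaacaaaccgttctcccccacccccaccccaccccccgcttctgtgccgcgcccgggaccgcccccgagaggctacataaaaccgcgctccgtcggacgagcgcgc
Zfp36: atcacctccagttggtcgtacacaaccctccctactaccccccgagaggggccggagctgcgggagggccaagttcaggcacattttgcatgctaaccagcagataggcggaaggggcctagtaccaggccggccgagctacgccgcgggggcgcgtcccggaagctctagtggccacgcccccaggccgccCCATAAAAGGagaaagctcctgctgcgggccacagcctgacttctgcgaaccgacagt

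RefSeq windows of 300 bases, 250 before and 50 after the start, were matched to 10595 of the 16898 tested genes. They were searched on both strands for 4 motifs, the NRF1 site (GCGC, any base, then TGCGC), the CRE TGACGTCA, the estrogen-related receptor element TCAAGGTCA and the CArG box, none of which contains another. Among 92 of the 110 tested genes of the respiratory chain, ATP synthase, tricarboxylic acid cycle and fatty acid oxidation, 22 (23.9%) held the NRF1 site, against 1142 (10.8%) of all matched genes. The estrogen-related receptor element was in only 2 of the 92 genes (2.17%) and in 0.33% of all. The CRE was in 5.43% of the 92 and 3.4% of all, and the CArG box in none of the 92 and in 1.66% of all. For the immediate-early genes only 19 of 24 had a window, under the 80% set for reading a share, and 5 of the 19 held a CRE or a CArG box. A match is a description of letters and not a measured binding site.

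Depth was alike in the groups, with 26607733 to 34048018 reads behind the eWAT values and 26706786 to 34512470 behind the BAT values. Log2 correlations between samples were 0.928 to 0.983 within eWAT and 0.966 to 0.984 within BAT. eWAT replicate 15 and BAT replicate 12 stood apart from the rest of their groups, as described with the cell type markers at the end. Several results that rest on either are given with and without it. All fold changes are log2 of eWAT over BAT, so a negative value means higher in BAT, and a call is an adjusted p under 0.05 in edgeR's quasi-likelihood test with Benjamini-Hochberg adjustment over all 16898 genes. Levels are given in RPKM (reads scaled to the length of the row and to the depth of the sample), as the lowest, the median and the highest of the 6 samples of a group, and a lone value in parentheses after a gene's levels is its log2 fold change. Where a group held few reads of a gene, the fitted fold change depends on the prior count of the model. The reads are given below for some of these genes. In all eWAT samples together, Atp2a1 had 15 reads, Fabp3 21, Elovl3 23, Aspg 36, Slc25a48 60 and Ucp1 98. In all BAT samples together, Tnf had 17 reads, Cxcl2 26 and Agt 59.

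Rows differed between the kinds of table. The iWAT tables had 53445 rows, the same number as the BAT tables, against 189660 in the eWAT tables. The iWAT levels given beside eWAT therefore rest on another kind of row. The chosen eWAT transcript had a median of 85.8% of the length of the BAT row, and only 4648 tested genes had an identical row in both. With row length as the offset, the median fold change ran from 1.48 for 341 genes whose eWAT transcript had under 25% of the BAT length to -0.52 for 4656 genes with 100% or more. When the trend over the length ratio was taken out, or when no length correction was made, the medians of these classes lay between -0.40 and 0.14. A gene is therefore said below to be called alike when it had the same direction and an adjusted p under 0.05 in all 3 of these fits.

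**Figure D1:**
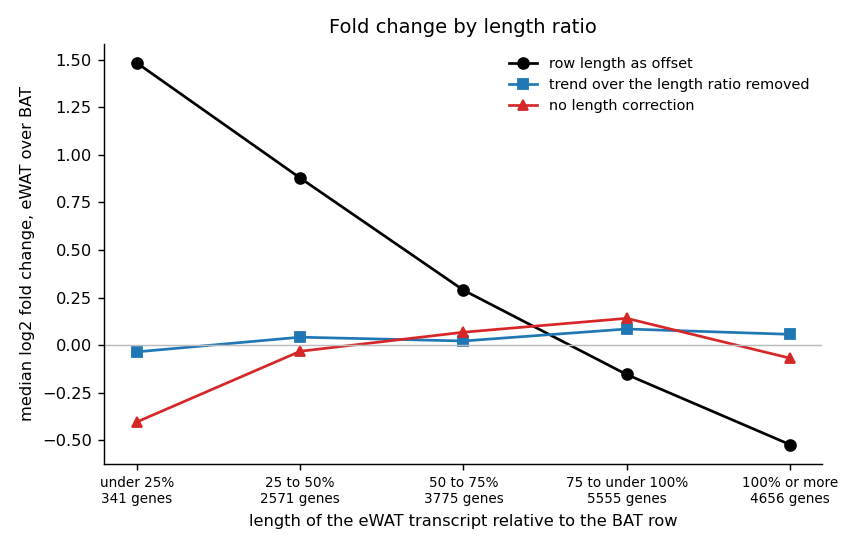
Median log2 fold change of eWAT over BAT (y axis) in 5 classes of genes by the length of the chosen eWAT transcript relative to the BAT row (x axis), for the 3 ways of handling row length. The offset for row length gave medians from 1.48 down to -0.52, and the other 2 fits stayed near 0 in every class except the 341 genes under 25%, where no correction gave -0.40.

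Normalisation also set where no change lay. A small number of genes took a larger share of the RPKM in BAT: the 100 highest genes of each sample held 70.2% ± 1.38 (SD, n = 6) of the summed RPKM in BAT and 48.7% ± 1.5 in eWAT, a difference of 21.6 percentage points (eWAT minus BAT -21.58; exact permutation test over samples, two-sided, p = 0.00216, the smallest this design can give). The highest rows in both groups were mitochondrial transcripts listed at nuclear copies of the mitochondrial genome on chromosome 1, where reads cannot be assigned with certainty. COX2 had a mean of 20180 ± 2144 RPKM in eWAT and 43760 ± 1294 RPKM in BAT (SD, n = 6). TMM scaling, which centres on the bulk of genes, put the median fold change of all genes at 0.03, whereas it was 0.79 with read totals alone. A gene at equal RPKM in both groups thus has a negative fold change here, so the calls without TMM are given beside those of each list below, in the same order of the groups.

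In all, 12524 of the 16898 genes were called (74.1%), of which 6455 (38.2%) were higher in eWAT and 6069 (35.9%) in BAT. Called alike under the 3 ways of handling length were 4801 genes higher in eWAT (28.4%) and 4567 higher in BAT (27.0%). Without TMM the split was 10552 higher in eWAT (62.4%) and 2950 in BAT (17.5%), and of the genes called alike, 4801 (28.4%) and 2950 (17.5%) kept their call and direction. Among the genes called alike, 1704 were at least 4-fold higher in eWAT and 1494 at least 4-fold higher in BAT, and 226 and 161 differed by at least 32-fold. With nearly 3 in 4 genes called, the counts for gene groups below are to be read against these shares.

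**Figure D2:**
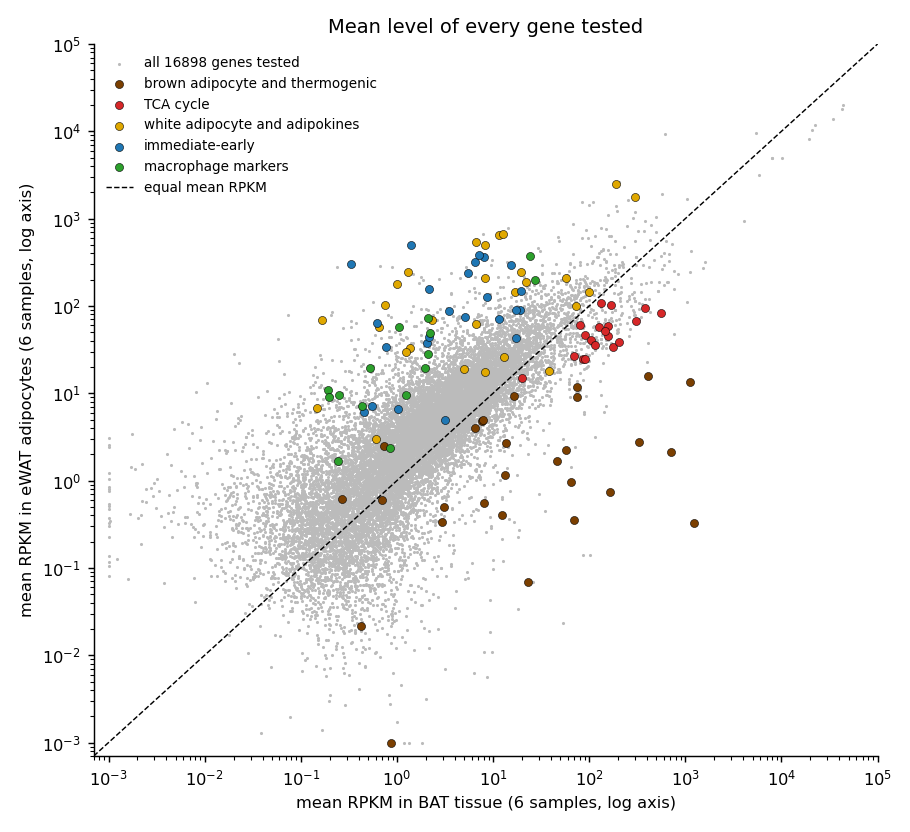
Mean RPKM of the 6 eWAT samples (y axis) against that of the 6 BAT samples (x axis) for all 16898 genes, both on log axes, with means under 0.001 drawn at 0.001. The brown adipocyte and tricarboxylic acid cycle genes lie mostly below the line of equal RPKM, and the white adipocyte, immediate-early and macrophage genes mostly above it.

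Brown adipocyte and thermogenic genes lay far on the BAT side. Of 28 tested, 26 were called higher in BAT and none in eWAT, all 26 alike under the 3 length fits, against 24 and 2 without TMM, with a median log2 fold change of -4.77 against 0.03 for all genes. Ucp1 itself (chr8:85814247-85822355, mm9) stood at 0.126, 0.346 and 0.549 RPKM in eWAT and at 969, 1196 and 1509 RPKM in BAT. The groups were separated by a wide gap, and this was the largest change of any named gene with at least 10 RPKM in the higher group (log2 fold change -12.64, SE 0.38, adjusted p = 3.34e-11). In bulk samples such as these, fewer cells of a type and less RNA per cell cannot be told apart.

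Cidea, a lipid droplet protein typical of brown fat, stood at 0.786, 2.08 and 3.13 RPKM in eWAT and at 634, 715 and 805 RPKM in BAT. Cpt1b, the muscle-type carnitine palmitoyltransferase that admits fatty acids to mitochondria, stood at 0.541, 0.738 and 0.904 RPKM in eWAT and at 144, 164 and 182 RPKM in BAT. In both, every BAT sample was above every eWAT sample, and the fold changes were -9.16 (SE 0.30) and -8.57 (SE 0.14). The tissue-specific cytochrome c oxidase subunits Cox7a1 and Cox8b had eWAT medians of 2.93 and 10.8 RPKM and BAT medians of 326 and 1079 RPKM (fold changes -7.64 and -7.13). Elovl3, a fatty acid elongase induced by cold, stood at 0.0157, 0.0508 and 0.2 RPKM in eWAT and at 7.27, 17 and 51.4 RPKM in BAT (log2 fold change -9.19, SE 0.77, adjusted p = 1.54e-07). Acot11, an acyl-CoA thioesterase, stood at 0.188, 0.217 and 1.1 RPKM in eWAT and at 32.1, 63.7 and 114 RPKM in BAT. The highest eWAT value was that of replicate 15, and without it the fold change of Acot11 moved from -8.36 to -9.15.

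Regulators of the brown programme followed the same direction. Ppara, the nuclear receptor of fatty acid oxidation, stood at 0.762, 1.79 and 2.33 RPKM in eWAT and at 32.5, 45.3 and 59.8 RPKM in BAT (log2 fold change -5.51, SE 0.24, adjusted p = 3.38e-10). Ppargc1a, the coactivator of mitochondrial biogenesis, stood at 0.268, 0.556 and 0.868 RPKM in eWAT and at 4.34, 6.18 and 19.4 RPKM in BAT. Dio2, the deiodinase that makes active thyroid hormone, stood at 0.228, 0.419 and 0.575 RPKM in eWAT and at 4.84, 10.5 and 30.5 RPKM in BAT. BAT replicate 11 held the highest value of both genes, and no BAT sample reached down to the eWAT range. Prdm16, a determinant of brown adipocyte fate, had the lower fold change of -3.41 (SE 0.23, adjusted p = 2e-08) at medians of 0.457 and 2.95 RPKM. The 2 genes that were not called were Bmp8b and Gatm. Bmp8b, a secreted BMP ligand, had 151 reads in eWAT and 192 in BAT in all, and its fold change of 0.45 (adjusted p = 0.0649) turned to -0.54 (adjusted p = 0.0324) with the length trend removed. Gatm, the first enzyme of creatine synthesis, stood at 0.626, 0.89 and 9.96 RPKM in eWAT and at 0.472, 0.615 and 1.13 RPKM in BAT, with the top eWAT value in replicate 15. Its groups overlapped, and its fold change of 1.04 (adjusted p = 0.171) became -0.37 without that replicate. Without TMM both genes were called higher in eWAT, Bmp8b at 1.22 (adjusted p = 9.14e-05) and Gatm at 1.76 (adjusted p = 0.0261).

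Among named genes with at least 10 RPKM in the higher group, the BAT side of the ranking was led after Ucp1 by Atp2a1, Fabp3, Aspg, Elovl3, Cidea, Cpt1b and Acot11. Fabp3, the heart-type fatty acid binding protein, stood at 0.0419, 0.128 and 0.241 RPKM in eWAT and at 55.4, 91.3 and 153 RPKM in BAT (log2 fold change -10.22, SE 0.36, adjusted p = 7.3e-11). Aspg, an asparaginase, had medians of 0.0681 and 23 RPKM (-9.26), and the mitochondrial carrier Slc25a48 of 0.0801 and 10.4 RPKM (-7.46). Lrrc24, whose function is poorly known, had a BAT median of 18.3 RPKM and an eWAT median of 0.221 RPKM (-7.10), while iWAT had a median of 8.55 RPKM. Atp2a1, the calcium pump of fast skeletal muscle, stood at 0.00887, 0.0136 and 0.0515 RPKM in eWAT and at 0.109, 5.82 and 282 RPKM in BAT, so its BAT values spanned more than 3 orders of magnitude. Its top value was in BAT replicate 12, and without that sample its fold change moved from -11.84 to -9.18.

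**Figure D3:**
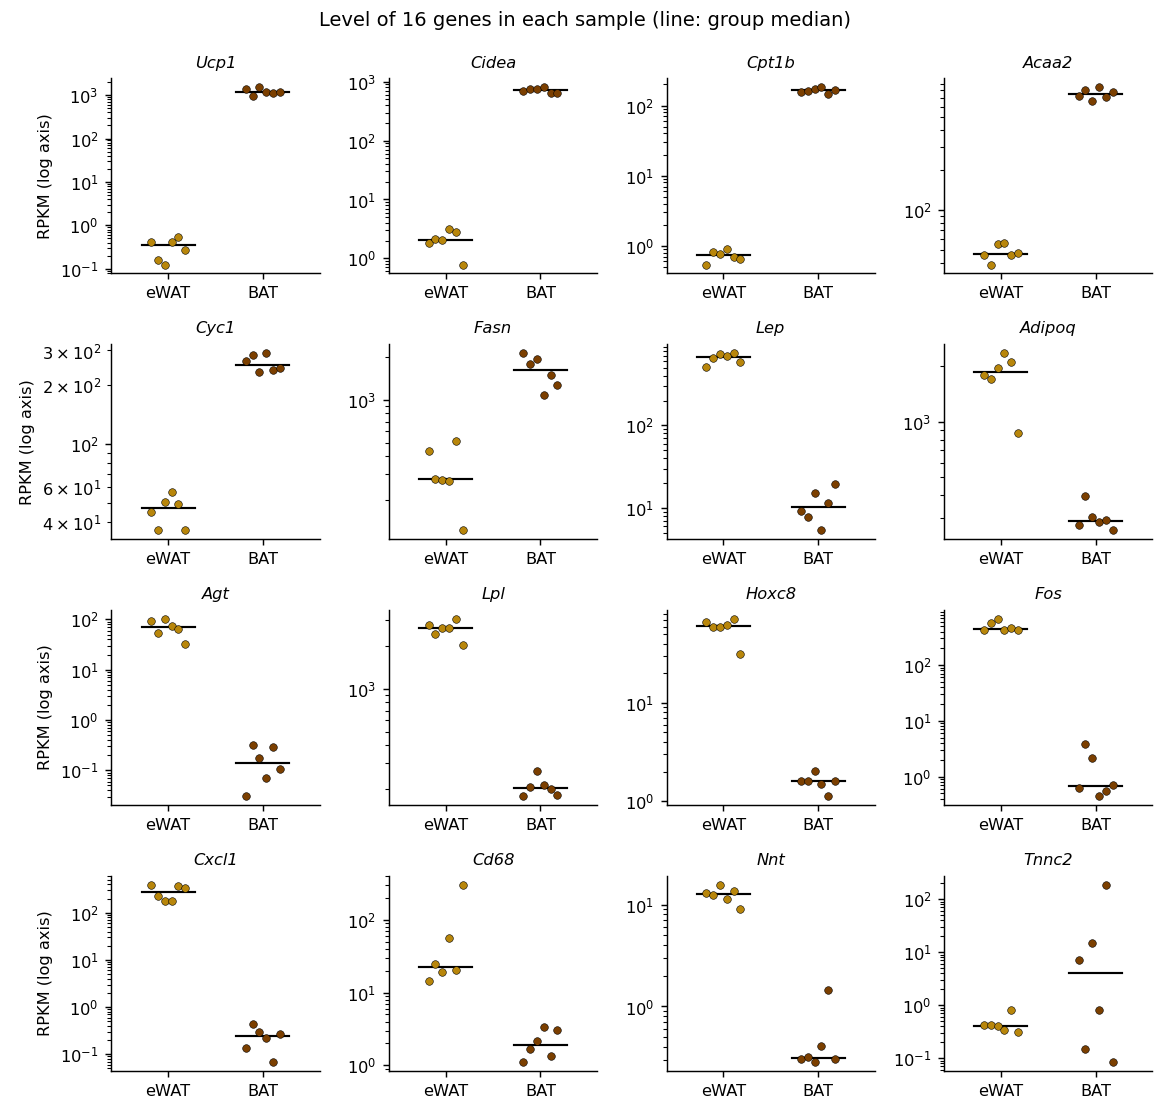
RPKM of 16 genes (y axes, log scale) in each of the 6 eWAT and 6 BAT samples, with the group median as a line. All but Tnnc2 show no overlap between the groups, and single samples stand apart for Cd68 in eWAT and for Tnnc2 and Nnt in BAT.

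The nuclear-encoded respiratory chain was higher in BAT in nearly every subunit tested. Of 34 subunits of complex I, which oxidises NADH, 33 were called higher in BAT and none in eWAT (30 and 1 without TMM, median -2.07). All 13 subunits of complexes II and III with cytochrome c were called higher in BAT (12 without TMM, median -2.61), and so were 12 of 13 of complex IV (12 without TMM, median -2.58). Every one of these calls was alike under the 3 length fits. Cyc1, cytochrome c1, stood at 36.1, 47 and 57 RPKM in eWAT and at 234, 254 and 291 RPKM in BAT (log2 fold change -3.27, SE 0.13, adjusted p = 1.58e-10). Ndufs8, an iron-sulfur subunit of complex I, stood at 14.2, 19.5 and 24.4 RPKM in eWAT and at 78.8, 84.9 and 107 RPKM in BAT (-2.98). Cox4i1 of complex IV stood at 204, 242 and 335 RPKM in eWAT and at 648, 703 and 943 RPKM in BAT (-2.35). The eWAT and BAT samples did not overlap in any of the 3.

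The genes whose promoters are printed above differed in size. Cox6a1 stood at 177, 211 and 340 RPKM in eWAT and at 704, 799.9 and 1023 RPKM in BAT (log2 fold change -2.61, SE 0.16, adjusted p = 8.11e-09). Sdha, the catalytic subunit of succinate dehydrogenase, stood at 72.7, 107 and 120.3 RPKM in eWAT and at 159.7, 167 and 177 RPKM in BAT (-1.49), with an eWAT transcript of only 32.4% of the BAT row, and its fold change was -2.66 without a length correction. Ndufb4 was close between the groups in RPKM, at 4.23, 4.83 and 6.62 RPKM in eWAT and at 6.14, 6.83 and 7.11 RPKM in BAT. The groups overlapped through eWAT replicate 14, and the fold change was -1.21 (SE 0.12, adjusted p = 8.79e-07). The members not called were Ndufs5 of complex I and Cox4i2, the hypoxia-related form of Cox4i1. Ndufs5 had an eWAT transcript of 24.2% of the BAT row, and its value of -0.24 (adjusted p = 0.0877) became -1.83 (adjusted p = 3.77e-08) without a length correction and 0.52 (adjusted p = 0.00162) without TMM. Cox4i2 was near 1 RPKM in both groups (medians 1.26 and 1.05, adjusted p = 0.488), and its sign turned from -0.23 to 0.53 without TMM.

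ATP synthase genes were called in both directions. Of 15 members tested, 10 were called higher in BAT and 4 in eWAT (10 and 1 alike, 8 and 5 without TMM), with a median of -1.13. Atp5a1, the alpha subunit, stood at 156, 186 and 218 RPKM in eWAT and at 506, 533 and 568 RPKM in BAT (-2.28). Atp5b, the catalytic beta subunit, stood at 406, 532 and 599 RPKM in eWAT and at 688, 716 and 764 RPKM in BAT (-1.27). In both, every BAT sample was above every eWAT sample. The member called alike towards eWAT was Atpif1, the protein that inhibits ATP hydrolysis by the enzyme, at 5.84, 7.6 and 22.3 RPKM in eWAT and at 1.33, 1.88 and 2.16 RPKM in BAT (log2 fold change 1.68, SE 0.30, adjusted p = 0.000212). The highest eWAT value was in replicate 15, and the fold change was 1.24 without it. Atp5g3, a subunit of the membrane ring, was called higher in eWAT at 1.07, but with a transcript of 33.1% of the BAT row it came to -0.07 without a length correction.

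The supply of electrons to the chain ran the same way. All 19 tested enzymes of the tricarboxylic acid cycle and pyruvate dehydrogenase were called higher in BAT under every length fit and without TMM, with a median of -2.29. Pdha1, the first subunit of pyruvate dehydrogenase, stood at 59.4, 99 and 114 RPKM in eWAT and at 322, 388 and 422 RPKM in BAT (log2 fold change -2.78, SE 0.18, adjusted p = 1e-08), with no overlap of the groups. Of 20 genes of mitochondrial fatty acid oxidation, 17 were called higher in BAT and 2 in eWAT (17 and 1 alike, 15 and 4 without TMM), with a median of -2.33. Acaa2, the last thiolase of the pathway, stood at 38.7, 46.6 and 55.9 RPKM in eWAT and at 668, 749 and 844 RPKM in BAT (log2 fold change -4.73, SE 0.12, adjusted p = 9.21e-12). Acadl, long-chain acyl-CoA dehydrogenase, stood at 68.8, 86.2 and 106 RPKM in eWAT and at 402, 432 and 453 RPKM in BAT (-3.10). The exception called alike was Cpt1a, the liver-type counterpart of Cpt1b, at 12.2, 17.5 and 32 RPKM in eWAT and at 1.14, 1.47 and 1.95 RPKM in BAT (log2 fold change 2.89, SE 0.22, adjusted p = 4.64e-08). The 2 carnitine palmitoyltransferases of the outer membrane thus lay on opposite sides, with Cpt1a as the higher of them in every eWAT sample and Cpt1b in every BAT sample.

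For genes of mitochondrial upkeep the split depended on the scaling. Of 72 mitochondrial ribosomal proteins, 56 were called higher in BAT and 9 in eWAT (54 and 1 alike, 36 and 20 without TMM), with a median of -0.99. Mrpl34 had the largest difference, at 18.9, 22.2 and 31.1 RPKM in eWAT and at 69, 82.1 and 92.8 RPKM in BAT (-2.57). Mrps6 was the single member called alike towards eWAT, at 68.4, 88.6 and 104 RPKM in eWAT and at 32.5, 34.3 and 43.1 RPKM in BAT (log2 fold change 0.51, SE 0.10, adjusted p = 0.000333). Of 26 genes of mitochondrial dynamics, import and biogenesis, 16 were called higher in BAT and 7 in eWAT (15 and 2 alike, 11 and 12 without TMM), with a median of -0.77, and Timm44, part of the import motor, was the leading one (6.53 and 19.8 RPKM, -2.30). The mitochondrial chaperone Hspa9 was also higher in BAT (-1.88, SE 0.12). As a reference outside mitochondria, 30 proteasome subunits had 10 called higher in each group, 1 in eWAT and 6 in BAT alike, with a median of 0.07, but 26 in eWAT and 1 in BAT without TMM.

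Nnt, the inner-membrane transhydrogenase that makes NADPH, lay on the eWAT side, unlike most of the mitochondrial genes tested. It stood at 9.03, 12.7 and 15.6 RPKM in eWAT and at 0.285, 0.311 and 1.45 RPKM in BAT, and at 2.01, 2.17 and 2.27 RPKM in iWAT. The eWAT and BAT groups did not overlap, and the value of 1.45 RPKM was that of BAT replicate 12, so that the fold change of 3.85 (SE 0.41, adjusted p = 1.7e-06) rose to 4.51 without that sample. The eWAT row of Nnt had 3526 bases against 13152 in the BAT row, and the fold change was 2.40 with no length correction. The iWAT level comes from a table with as many rows as BAT, so it is not on like rows with eWAT.

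Fatty acid synthesis genes were mostly higher in BAT, whereas genes that take up fatty acids from lipoproteins were mostly higher in eWAT. Of 19 synthesis genes, 13 were called higher in BAT and 3 in eWAT (12 and 1 alike, 10 and 6 without TMM), with a median of -1.55. Fasn, fatty acid synthase, stood at 122, 277 and 512 RPKM in eWAT and at 1076, 1620 and 2112 RPKM in BAT (log2 fold change -3.12, SE 0.34, adjusted p = 1.87e-06). Scd1, the main stearoyl-CoA desaturase, stood at 1869, 3012 and 4825 RPKM in eWAT and at 5109, 5786 and 6441 RPKM in BAT (-1.65). Scd1 was among the 10 highest nuclear genes of both groups. Fads1, the delta-5 desaturase of polyunsaturated fatty acids, was the member called alike towards eWAT, at 9.95, 13.4 and 16.1 RPKM in eWAT and at 2.48, 3.27 and 3.93 RPKM in BAT (1.28).

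Of 13 uptake genes, 9 were called higher in eWAT and 2 in BAT (6 and 2 alike, 11 and 1 without TMM), with a median of 1.02. Lpl, lipoprotein lipase, stood at 2018, 2637 and 3065 RPKM in eWAT and at 177, 202 and 266 RPKM in BAT (log2 fold change 2.88, SE 0.16, adjusted p = 3.56e-09). Cd36, the fatty acid translocase, stood at 909, 1121 and 1265 RPKM in eWAT and at 134, 162 and 173 RPKM in BAT (2.04). For both genes the eWAT transcript had under 50% of the BAT row, and without a length correction the values were 1.99 and 1.29. Fabp4, the adipocyte fatty acid binding protein and the highest gene of eWAT outside the mitochondrial rows, stood at 6452, 9909 and 11130 RPKM in eWAT and at 4903, 5473 and 6118 RPKM in BAT. All eWAT samples were above all BAT samples in RPKM. The fold change was 0.02 with no call (adjusted p = 0.92) when row length was the offset, but 0.60 (adjusted p = 0.00191) with the length trend removed and 0.47 (adjusted p = 0.0115) with no length correction. Without TMM it was 0.79 (adjusted p = 0.000114).

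Triglyceride synthesis and droplet genes were divided. Of 16 triglyceride synthesis enzymes, 9 were called higher in BAT and 4 in eWAT (9 and 3 alike, 4 and 6 without TMM). Gpd1, which makes glycerol 3-phosphate from a glycolytic intermediate, stood at 169, 274 and 344 RPKM in eWAT and at 1264, 1479 and 1824 RPKM in BAT (log2 fold change -3.28, SE 0.20, adjusted p = 5.97e-09). Mogat2, which acylates monoacylglycerol, stood at 6.51, 6.93 and 9.66 RPKM in eWAT and at 0.141, 0.246 and 0.409 RPKM in BAT (log2 fold change 4.17, SE 0.24, adjusted p = 3.92e-09). Of 15 lipolysis and droplet genes, 6 were called higher in BAT and 5 in eWAT (6 and 3 alike, 4 and 8 without TMM). Cidec, which drives fusion into a single droplet, stood at 931, 1655 and 2296 RPKM in eWAT and at 220.1, 232 and 351 RPKM in BAT (1.88), opposite to its relative Cidea. Plin4, a droplet coat protein, stood at 312, 673 and 795 RPKM in eWAT and at 99, 117 and 128 RPKM in BAT (1.7).

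In glucose use, 14 of 21 genes were called higher in BAT and 3 in eWAT (14 and 2 alike, 13 and 7 without TMM), with a median of -1.5. Pdk4, the kinase that switches off pyruvate dehydrogenase, stood at 10.5, 14.5 and 22.9 RPKM in eWAT and at 324, 388 and 538 RPKM in BAT (log2 fold change -5.44, SE 0.23, adjusted p = 2.74e-10). Its relative Pdk3 lay on the other side, at 4.85, 5.39 and 6.09 RPKM in eWAT and at 0.168, 0.21 and 0.256 RPKM in BAT (log2 fold change 3.93, SE 0.14, adjusted p = 6.47e-11). So did Slc2a1, the basal glucose transporter GLUT1, at 5.42, 8.21 and 12 RPKM in eWAT and at 0.774, 1.41 and 1.78 RPKM in BAT (1.94). The eWAT and BAT samples did not overlap in any of these. Peroxisomal genes divided, with 12 of 27 called higher in BAT and 8 in eWAT (11 and 1 alike, 6 and 17 without TMM). Ehhadh, the peroxisomal bifunctional enzyme, led on the BAT side (-2.18), and Abcd2, a carrier of very long-chain fatty acids, was the 1 called alike towards eWAT (133 and 22.3 RPKM, 1.75).

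Of 20 genes of branched-chain amino acid breakdown, 10 were called higher in BAT and 5 in eWAT (10 and 2 alike, 6 and 10 without TMM). Bckdha, of the rate-limiting dehydrogenase, stood at 28.9, 44.6 and 59.4 RPKM in eWAT and at 116, 137 and 157 RPKM in BAT (-2.34). The cytosolic transaminase Bcat1 stood at 0.426, 0.82 and 0.881 RPKM in eWAT and at 0.0311, 0.0514 and 0.0983 RPKM in BAT (2.94). Of 21 sterol synthesis genes, 8 were called higher in eWAT and 3 in BAT (5 and 2 alike, 17 and 0 without TMM), and their median of 0.25 turned to -0.10 with the length trend removed. Of 11 creatine and calcium cycling genes, 5 were called higher in BAT and 3 in eWAT (4 and 3 alike, 4 and 6 without TMM). Among the 5, Atp2a1 and Ryr1 are also on the skeletal muscle list below. Ryr1 and Casq1 had BAT medians of 0.211 and 0.762 RPKM but highest BAT values of 8.36 and 34.7 RPKM. Alpl was even in BAT, at 1.63, 2.11 and 2.34 RPKM, and Casq2 was not called alike. The count without BAT replicate 12 is not given here. Gamt, which completes creatine synthesis, stood at 25.5, 31.4 and 42.4 RPKM in eWAT and at 1.35, 1.74 and 2.03 RPKM in BAT (log2 fold change 3.44, SE 0.14, adjusted p = 2.21e-10), while the leading BAT member was Atp2a1, described above.

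**Figure D4:**
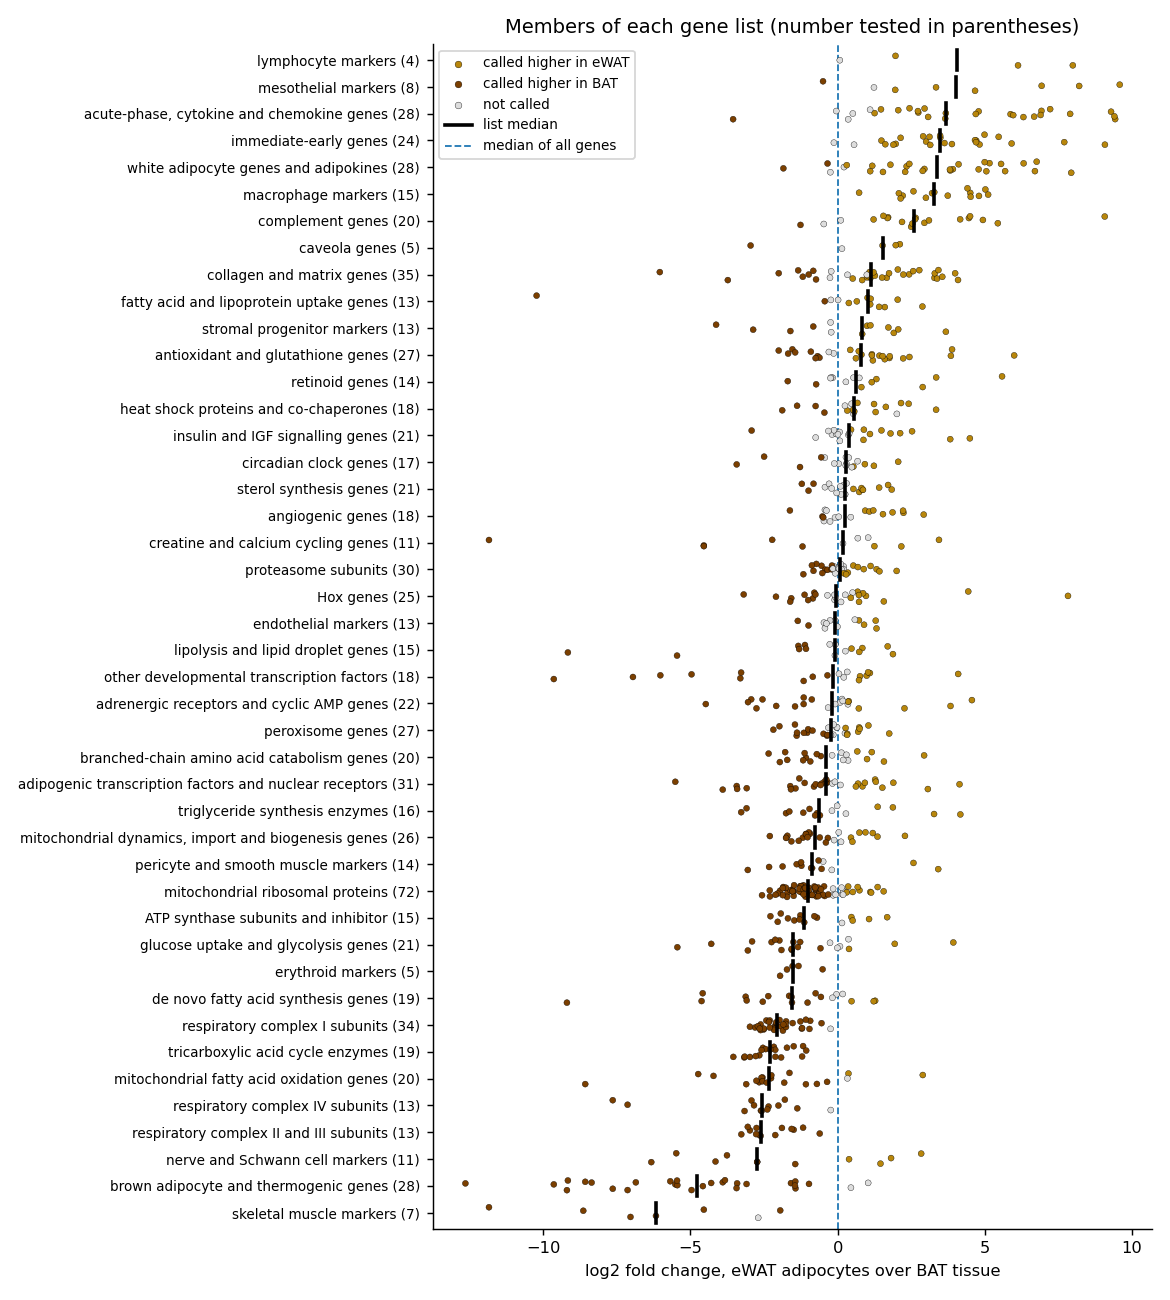
Log2 fold change of eWAT over BAT (x axis) of every tested member of each gene list (y axis, number tested in parentheses), coloured by call, with the list median as a bar and the median of all genes as a dashed line at 0.03. Respiratory, tricarboxylic acid cycle and brown adipocyte lists lie left of the line, and white adipocyte, immediate-early, cytokine and macrophage lists lie right of it.

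White adipocyte genes and adipokines formed the counterpart of the brown list. Of 28 tested, 24 were called higher in eWAT and 2 in BAT (24 and 1 alike, 27 and 1 without TMM), with a median of 3.38. Lep, leptin (chr6:29010220-29023877, mm9), stood at 511, 670.5 and 751 RPKM in eWAT and at 5.36, 10.4 and 19.4 RPKM in BAT (log2 fold change 5.05, SE 0.32, adjusted p = 8.7e-09). Retn, resistin, stood at 264, 598 and 664 RPKM in eWAT and at 3.55, 6.53 and 12.4 RPKM in BAT (5.55). Sncg, gamma-synuclein, stood at 426, 688 and 817 RPKM in eWAT and at 6.12, 11.1 and 21.9 RPKM in BAT (4.99). Every eWAT sample of these genes lay above every BAT sample by more than an order of magnitude. Agt, angiotensinogen, stood at 32.6, 69.6 and 102 RPKM in eWAT and at 0.0306, 0.142 and 0.324 RPKM in BAT (log2 fold change 7.94, SE 0.45, adjusted p = 3.82e-09) and had the largest change of the list. Adipoq, adiponectin (chr16:23146609-23158101, mm9), differed less, at 868, 1863 and 2351 RPKM in eWAT and at 258, 289.5 and 394 RPKM in BAT (log2 fold change 1.79, SE 0.20, adjusted p = 2.63e-06). Cfd, the protease adipsin, stood at 746, 2668 and 3725 RPKM in eWAT and at 88.4, 155 and 469.8 RPKM in BAT (2.95), with the highest BAT value in replicate 7.

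The members of this list called higher in BAT were Nampt and Pparg. Nampt, the rate-limiting enzyme of NAD salvage, stood at 16, 18.4 and 20.1 RPKM in eWAT and at 33.3, 38.9 and 43.8 RPKM in BAT (log2 fold change -1.84, SE 0.12, adjusted p = 9.41e-09). Pparg, the master regulator of adipocytes, stood at 66.8, 103 and 119 RPKM in eWAT and at 63.7, 74.7 and 85 RPKM in BAT, with overlap of the groups. Its call towards BAT (-0.34, adjusted p = 0.0342) was not kept with the length trend removed (-0.14) nor without BAT replicate 12 (adjusted p = 0.0531), and it turned to 0.43 (adjusted p = 0.0108) without TMM.

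Genes of insulin and IGF signalling were more often called higher in eWAT than in BAT, 10 against 1 of 21 (9 and 1 alike, 18 and 1 without TMM), with a median of 0.39. Igfbp4, an IGF binding protein, stood at 99.98, 133 and 208 RPKM in eWAT and at 2.72, 3.4 and 5.57 RPKM in BAT (log2 fold change 4.49, SE 0.21, adjusted p = 6.88e-10). Igf1 itself stood at 29.4, 31.5 and 38.9 RPKM in eWAT and at 0.696, 1.26 and 2.27 RPKM in BAT (3.83). Igf2, its fetal counterpart, was the exception, at 0.175, 0.286 and 0.358 RPKM in eWAT and at 0.932, 1.1 and 2.07 RPKM in BAT (-2.92). Of 14 retinoid genes, 6 were called higher in eWAT and 2 in BAT (6 and 1 alike, 10 and 1 without TMM), among them Rbp4, the plasma retinol carrier, at 128, 257 and 315 RPKM in eWAT and at 12.7, 16.9 and 31.2 RPKM in BAT (2.89). Aldh1a1, which makes retinoic acid, stood at 53, 75.7 and 101 RPKM in eWAT and at 2.92, 3.49 and 8.81 RPKM in BAT (3.35). The groups did not overlap in these 5 genes.

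Cell surface and matrix genes were higher in eWAT in most cases. Cav1, the coat protein of caveolae, stood at 878, 1502 and 1634 RPKM in eWAT and at 167, 191 and 202 RPKM in BAT (log2 fold change 2.12, SE 0.15, adjusted p = 2.15e-08), with its lowest eWAT value in replicate 15, and 3 of 5 caveola genes were called higher in eWAT and 1 in BAT (4 and 1 without TMM). Of 35 collagen and matrix genes, 23 were called higher in eWAT and 8 in BAT (20 and 7 alike, 25 and 3 without TMM), with a median of 1.12. Sparc, a collagen-binding matrix protein, stood at 1196, 1503 and 2014 RPKM in eWAT and at 75.3, 82.1 and 94.5 RPKM in BAT (log2 fold change 3.43, SE 0.12, adjusted p = 8.89e-11). Timp4, an inhibitor of metalloproteinases, stood at 83.2, 152 and 197 RPKM in eWAT and at 3.1, 5.21 and 9.87 RPKM in BAT (3.99). Col27a1, a fibrillar collagen, lay on the other side, at 0.0394, 0.0964 and 0.104 RPKM in eWAT and at 2.2, 3.04 and 4.8 RPKM in BAT (log2 fold change -6.04, SE 0.26, adjusted p = 3.59e-10). Car3, a carbonic anhydrase abundant in adipocytes, stood at 4986, 9896 and 11270 RPKM in eWAT and at 490.4, 573 and 903 RPKM in BAT (3.14) and was the second highest nuclear gene of eWAT. Of 18 angiogenic genes, 8 were called higher in eWAT and 3 in BAT (7 and 2 alike, 11 and 1 without TMM).

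Hox genes, which record the position of a tissue along the body axis, were called higher in each group for 9 of 25 (7 in eWAT and 8 in BAT alike, 15 and 3 without TMM). Hoxc8 stood at 31.4, 60.9 and 71.5 RPKM in eWAT and at 1.12, 1.6 and 2.03 RPKM in BAT (log2 fold change 4.44, SE 0.22, adjusted p = 8.99e-10), and Hoxc9 at 0.976, 1.66 and 1.87 RPKM in eWAT with 494 reads in all, against 1 read in all BAT samples together. Both were also well above BAT in iWAT, at medians of 45.8 and 4.93 RPKM. Towards BAT, Hoxa5 stood at 2.39, 3.93 and 5.87 RPKM in eWAT and at 6.89, 10.2 and 11.3 RPKM in BAT (-2.09). Hoxa4 stood at 0.619, 1.06 and 1.48 RPKM in eWAT and at 4.05, 6.09 and 6.95 RPKM in BAT (-3.19). Among 18 other developmental factors, 9 were called higher in BAT and 6 in eWAT (7 and 3 alike, 6 and 10 without TMM). Zic1, a marker of classical brown fat, had 0.551, 0.793 and 1.24 RPKM in BAT with 912 reads in all, and 1 read in all eWAT samples together. Tbx15, a T-box factor, stood at 0, 0.00826 and 0.0372 RPKM in eWAT and at 0.454, 0.545 and 3.06 RPKM in BAT. Gata6, a factor of visceral mesoderm, stood at 1.54, 4.22 and 6.23 RPKM in eWAT and at 0.0737, 0.142 and 0.193 RPKM in BAT (4.10). BAT replicate 12 held the highest Tbx15 value, and without it the fold change was -6.15 in place of -6.95, with 8 reads in eWAT.

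Of 31 adipogenic transcription factors and nuclear receptors, 18 were called higher in BAT and 10 in eWAT (13 and 9 alike), but without TMM the split was 10 in BAT and 15 in eWAT. Besides Ppara, Cebpb was towards BAT, at 19.8, 30.1 and 45.5 RPKM in eWAT and at 43, 50.9 and 88.7 RPKM in BAT (log2 fold change -1.61, SE 0.22, adjusted p = 1.42e-05), although its groups overlapped in RPKM. Its relative Cebpd stood at 18.6, 29.4 and 38 RPKM in eWAT and at 0.63, 0.881 and 1.67 RPKM in BAT (log2 fold change 4.14, SE 0.22, adjusted p = 2.24e-09). Of 22 adrenergic and cyclic AMP genes, 10 were called higher in BAT and 6 in eWAT (10 and 4 alike, 8 and 11 without TMM). Adrb1, the beta-1 adrenergic receptor, stood at 0.331, 0.663 and 1.06 RPKM in eWAT and at 5.13, 8.01 and 11.4 RPKM in BAT (log2 fold change -4.48, SE 0.29, adjusted p = 1.44e-08). Adrb3, the beta-3 receptor of adipocytes, stood at 46.1, 149 and 169 RPKM in eWAT and at 50.6, 68.2 and 99.7 RPKM in BAT with no call (0.15, SE 0.26, adjusted p = 0.615) and overlapping groups. Its lowest eWAT value was that of replicate 15, without which the fold change was 0.33 (adjusted p = 0.0714). Without TMM it was called higher in eWAT (0.92, adjusted p = 0.00572). Adcy5, an adenylyl cyclase, stood at 15.6, 28.6 and 31.7 RPKM in eWAT and at 0.421, 0.602 and 0.967 RPKM in BAT (log2 fold change 4.56, SE 0.26, adjusted p = 3.54e-09), and Prkar2b, a regulatory subunit of protein kinase A, was called towards BAT (-1.15) with groups that overlapped in RPKM.

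Genes that are induced rapidly after a stimulus lay on the eWAT side in nearly all cases. Of 24 immediate-early genes, 22 were called higher in eWAT and none in BAT, all 22 alike under the length fits and 23 called without TMM, with a median of 3.49. Fos, a subunit of AP-1, stood at 423, 446 and 671 RPKM in eWAT and at 0.445, 0.664 and 3.84 RPKM in BAT (log2 fold change 7.70, SE 0.61, adjusted p = 8.12e-08). Its relative Fosb stood at 181, 289 and 474 RPKM in eWAT and at 0.0878, 0.169 and 1.19 RPKM in BAT (9.08). The iWAT adipocytes, which went through the same digestion, stood at 397, 569.7 and 665 RPKM for Fos and 224, 304 and 383 RPKM for Fosb. Egr1, a zinc finger factor, stood at 224, 405 and 487 RPKM in eWAT and at 1.53, 3.29 and 20.3 RPKM in BAT (4.71). Of the genes whose promoters are printed above, Zfp36 stood at 322, 372 and 464 RPKM in eWAT and at 4.27, 6.73 and 10.4 RPKM in BAT (4.99), and Dusp1 at 106, 146 and 226 RPKM in eWAT and at 10.2, 16.4 and 35.1 RPKM in BAT (2.14). In each of these the groups were apart. The 2 members not called were Nr4a2 and Klf2, with fold changes of -0.13 (adjusted p = 0.766) and 0.56 (adjusted p = 0.214), and the sign of Nr4a2 turned to 0.65 without TMM. Klf2 was called higher in eWAT with the length trend removed (0.98, adjusted p = 0.0413), with no length correction (0.98, adjusted p = 0.0376) and without TMM (1.30, adjusted p = 0.012). Digestion was used for every eWAT and no BAT sample, so its part in these values cannot be told apart from that of the depot.

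Acute-phase, cytokine and chemokine genes lay on the same side, with 23 of 28 called higher in eWAT and 1 in BAT, all alike under the length fits (26 and 1 without TMM), and a median of 3.67. Cxcl1, a neutrophil chemokine, stood at 174, 278 and 390 RPKM in eWAT and at 0.0685, 0.248 and 0.435 RPKM in BAT (log2 fold change 9.43, SE 0.43, adjusted p = 4.91e-10). Il6 stood at 5.95, 13.4 and 23.1 RPKM in eWAT and at 0, 0.0127 and 0.0243 RPKM in BAT (9.29, from 5 BAT reads in all). Cxcl2 stood at 26.2, 56.1 and 233 RPKM in eWAT and at 0.0141, 0.0457 and 0.254 RPKM in BAT. Tnf stood at 4.72, 16.1 and 72.5 RPKM in eWAT and at 0, 0.0396 and 0.144 RPKM in BAT, and Il10, which is outside the list, at 1.24, 6.89 and 37 RPKM in eWAT with 2 reads in BAT. For these last 3 the highest eWAT sample was replicate 15, and without it the fold changes were 8.67, 7.05 and 8.24 in place of 9.40, 7.90 and 9.35. Hp, haptoglobin, stood at 872, 1233 and 1495 RPKM in eWAT and at 271, 298 and 326 RPKM in BAT (1.26). Cxcl14 was the member called higher in BAT, at 0.291, 0.472 and 3.51 RPKM in eWAT and at 5.91, 7.67 and 8.3 RPKM in BAT (-3.55, or -4.52 without replicate 15, the highest of eWAT). Of 20 complement genes, 17 were called higher in eWAT and 1 in BAT (16 and 1 alike, 18 and 1 without TMM), with a median of 2.59, led by C6 at 9.59, 24.9 and 27.8 RPKM in eWAT and at 0, 0.0236 and 0.0489 RPKM in BAT (9.07, from 18 BAT reads). C4b stood at 126, 178 and 192 RPKM in eWAT and at 1.55, 1.93 and 3.85 RPKM in BAT (log2 fold change 5.44, SE 0.25, adjusted p = 5.65e-10). Fam110c, a gene outside the lists, headed the ranking of named genes on the eWAT side, at 16.7, 28.6 and 36.1 RPKM in eWAT and at 0, 0.0194 and 0.0364 RPKM in BAT (log2 fold change 9.65, SE 0.36, adjusted p = 1.17e-10, from 10 BAT reads in all).

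Heat shock and antioxidant genes were mixed. Of 18 heat shock proteins, 10 were called higher in eWAT and 4 in BAT (7 and 3 alike, 13 and 2 without TMM). Dnajb4, a cytosolic co-chaperone, stood at 48.5, 73.2 and 99 RPKM in eWAT and at 3.55, 4.02 and 5.36 RPKM in BAT (3.35). Hspa5, the chaperone of the endoplasmic reticulum, stood at 160, 181 and 267 RPKM in eWAT and at 41.5, 44.8 and 56 RPKM in BAT (1.29). Of 27 antioxidant genes, 17 were called higher in eWAT and 8 in BAT (15 and 8 alike, 19 and 4 without TMM). Gsta3, a glutathione transferase, stood at 27.5, 74 and 81.6 RPKM in eWAT and at 0.318, 0.616 and 0.949 RPKM in BAT (log2 fold change 6.00, SE 0.33, adjusted p = 3.05e-09). Gpx3, the secreted glutathione peroxidase, stood at 53.5, 125 and 308 RPKM in eWAT and at 262, 360 and 419.8 RPKM in BAT (-2.0) with groups that overlapped. Of 17 circadian clock genes, 4 were called in each direction (4 in eWAT and 2 in BAT alike, 9 and 2 without TMM).

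Markers of cells other than adipocytes differed between the preparations. All 15 macrophage markers were called higher in eWAT, alike under all length fits and without TMM, with a median of 3.28. Their summed level was 229 to 3160 RPKM in eWAT, the highest in replicate 15 and the next 744 RPKM in replicate 13, and 43.0 to 97.0 RPKM in BAT. Cd68, a lysosomal protein of macrophages, stood at 14.5, 22.6 and 306 RPKM in eWAT and at 1.11, 1.9 and 3.36 RPKM in BAT (log2 fold change 4.41, SE 0.82, adjusted p = 0.000281). Lyz2, lysozyme, stood at 90.5, 179.8 and 1320 RPKM in eWAT and at 15.9, 20.7 and 40 RPKM in BAT (3.21). Mmp12, macrophage elastase, stood at 7.19, 27.6 and 345 RPKM in eWAT and at 0.0174, 0.131 and 0.617 RPKM in BAT (7.87). Without replicate 15 the fold changes of these 3 genes were 2.92, 2.12 and 6.20, and 13 of the 15 markers were called. The cytokine count stayed at 23 of 28 without that replicate, and the immediate-early count at 22 of 24. The part of macrophage RNA in the cytokine values was not tested.

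The lymphocyte list had only 4 tested markers, since T cell genes such as Cd3e had too few reads. Ighm, the heavy chain of immunoglobulin M, stood at 226, 274 and 366 RPKM in eWAT and at 0.442, 0.541 and 1.01 RPKM in BAT (log2 fold change 7.99, SE 0.28, adjusted p = 6.51e-11), with an eWAT row of 1492 bases against 10374 in BAT. Il7r, the interleukin-7 receptor, stood at 0.947, 2.08 and 31.5 RPKM in eWAT and at 0.0301, 0.0602 and 0.102 RPKM in BAT (6.13, or 4.45 without eWAT replicate 15). Mesothelial markers were higher in eWAT, with 6 of 8 called in that direction and 1 in BAT (7 and 0 without TMM), and a summed level of 52.4 to 104 RPKM against 14.5 to 17.3 RPKM. Upk3b, a surface protein of mesothelium, stood at 0.385, 2.88 and 7.25 RPKM in eWAT with 1505 reads, against 1 read in BAT. Efemp1 stood at 30.4, 48 and 66.3 RPKM in eWAT and at 2.3, 2.89 and 3.87 RPKM in BAT (3.34). It was also at 19.9, 28.2 and 40 RPKM in iWAT, where Upk3b was at most 0.0351 RPKM. The eWAT sum rests mostly on Efemp1 and Lrrn4, with means of 50.25 and 15.31 RPKM. Lrrn4 was the member called towards BAT (-0.50, or -2.42 without a length correction). No epididymis marker passed the read minimum, but their summed level was 115 RPKM in eWAT replicate 14 and 99.4 RPKM in replicate 15, at most 3.82 RPKM in the other eWAT samples and at most 0.152 RPKM in BAT, where 8 of 12 markers were at 0. Without these replicates, 12356 genes were called in place of 12524.

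Skeletal muscle markers were high in single BAT samples. Of 7 tested, 6 were called higher in BAT, and the summed level ran from 11.4 to 2324 RPKM, the highest in replicate 12 and the next 213 RPKM in replicate 8, against 19.6 to 51.6 RPKM in eWAT. The eWAT sum rests mostly on Acta1, the member not called, and Myl1, with means of 28.63 and 8.11 RPKM. The other markers had eWAT means of at most 0.705 RPKM. Tnnc2, fast troponin C, stood at 0.308, 0.411 and 0.814 RPKM in eWAT and at 0.0842, 3.97 and 186 RPKM in BAT, with overlapping groups, and its fold change moved from -7.03 to -4.18 without replicate 12. Without that sample, 5 of the 7 markers and 12178 genes in all were called, with 26 of the 28 brown adipocyte genes still higher in BAT. Nerve and Schwann cell markers were called higher in BAT for 7 of 11 and in eWAT for 4 (7 and 3 alike, 6 and 4 without TMM), with Sox10, the Schwann cell factor, at 0, 0.00544 and 0.0216 RPKM in eWAT and at 0.267, 0.485 and 0.604 RPKM in BAT (-6.33, from 4 eWAT reads). S100b stood at 1.21, 2.52 and 3.93 RPKM in eWAT and at 20.5, 25.1 and 40 RPKM in BAT (-4.15). Their summed level was the other way, 96.7 to 129 RPKM in eWAT and 40.5 to 68.2 RPKM in BAT.

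The calls of vascular and stromal markers were mixed, while their summed levels in RPKM were higher in eWAT. The endothelial sum was 194 to 462 RPKM in eWAT and 86.6 to 197 RPKM in BAT, with a slight overlap. The pericyte and smooth muscle sum was 225 to 362 RPKM against 111 to 170.1 RPKM, and the stromal sum 149 to 306 RPKM against 61.9 to 95.3 RPKM, both without overlap. Of 13 endothelial markers, 4 were called higher in eWAT and 2 in BAT (2 and 2 alike, 7 and 0 without TMM), with a median of -0.09. Of 14 pericyte and smooth muscle markers, 10 were called higher in BAT and 2 in eWAT (7 and 2 alike, 4 and 3 without TMM), the 2 called alike towards eWAT being Acta2, smooth muscle actin, at 24.2, 69.4 and 83.8 RPKM in eWAT and at 2.69, 3.16 and 4.53 RPKM in BAT (3.42), and Mcam at 68.1, 127 and 148 RPKM in eWAT and at 8.34, 12.3 and 14.4 RPKM in BAT (2.58). The 7 called alike towards BAT were Des (-3.05), Cnn1 (-2.33), Lmod1 (-1.87), Cspg4 (-1.39), Higd1b (-1.24), Myh11 (-1.23) and Rgs5 (-0.87). Of 13 stromal progenitor markers, 7 were called higher in eWAT and 4 in BAT (6 and 4 alike, 7 and 3 without TMM). The 6 called alike towards eWAT were Icam1 (3.68), Anxa3 (2.06), Cd34 (1.91), Dpp4 (1.72), Col3a1 (1.12) and Col1a1 (0.83). The 4 towards BAT were Pi16, Dlk1 (-2.87), Pdgfra (-1.60) and Lum (-0.83). Pi16, a marker of early progenitors, had the largest change of the list, at 0.116, 0.238 and 0.272 RPKM in eWAT and at 1.69, 2.21 and 2.94 RPKM in BAT (log2 fold change -4.13, SE 0.20, adjusted p = 9.14e-10). All 5 tested erythroid markers were called higher in BAT (2 without TMM), with Hbb-b2, a beta globin, at 63.4, 126 and 466 RPKM in eWAT and at 217, 437 and 598 RPKM in BAT (-1.95), although the groups overlapped.

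**Figure D5:**
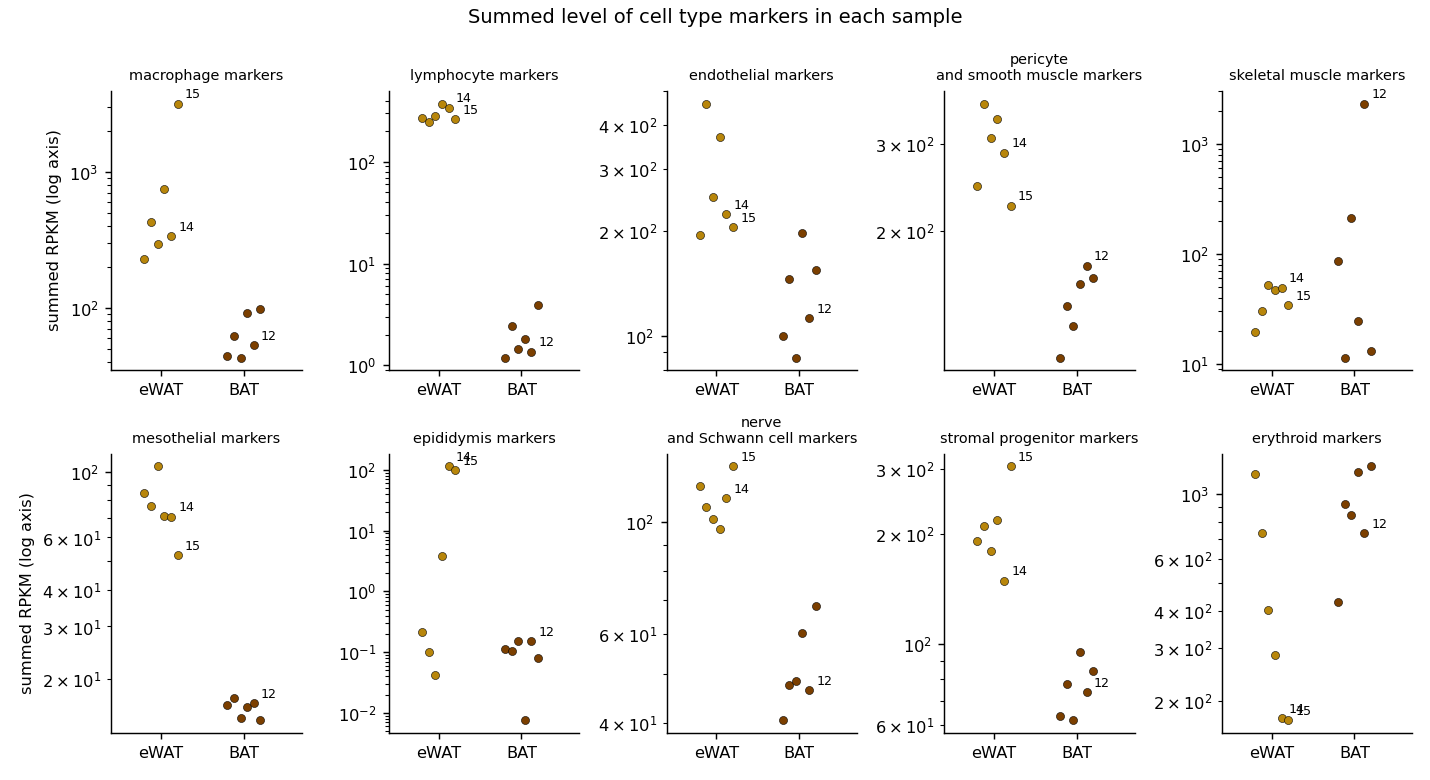
Summed RPKM of the markers of 10 cell types (y axes, log scale) in each eWAT and BAT sample, with eWAT replicates 14 and 15 and BAT replicate 12 numbered. The macrophage sum reaches 3160 RPKM in eWAT replicate 15, the skeletal muscle sum 2324 RPKM in BAT replicate 12, and the epididymis sum about 100 RPKM only in eWAT replicates 14 and 15.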

How the data were processed

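Total RNA of RIN above 8 from 6 eWAT and 6 BAT samples was made into libraries (NEBNext Ultra) and read on an Illumina HiSeq. Alignment by the authors was to build mm9, with the Genomatix Genome Analyzer for the analysis, and the submitters' processing notes list cutadapt 1.16 and HISAT2 2.1.0. Each deposited table gives the authors' read count per row and an RPKM, which is that count scaled to the length of the row and to the depth of the sample. BAT tables hold 1 locus row per gene with merged exons (53445 rows), and eWAT tables hold single transcripts (189660 rows), among which 1 read can count for several transcripts of a gene. Whether strand was used in counting is not given in the sources used here, so overlapping genes and paralogs are uncertain.

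Counts of the matched rows were tested with edgeR 4.0.16 in R 4.3.3 (glmQLFit and glmQLFTest), with row length as an offset, TMM on the length-corrected counts and the read total that the RPKM values rest on as library size. Genes needed at least 10 reads in at least 6 samples. A call is a Benjamini-Hochberg adjusted p under 0.05, and the SE is the fold change over the square root of F. In simulated counts, 69 of 97 genes seeded at a log2 fold change of 1 were called in the right direction, and 94 of 98 seeded at 2. Those counts were drawn with the row-length offset taken as true, so they cannot test that offset. The trend over the length ratio was removed with a lowess curve of span 0.3, a step chosen after seeing the data. The share of the 100 highest genes was compared by an exact permutation test (scipy 1.17.1). DESeq2 1.42.0 and limma 3.58.1 (log2 of RPKM plus 0.1 or 1) were alternatives. Gene positions are those of the BAT rows in mm9, and promoter windows come from RefSeq tables of GRCm38.p6, with no coordinates moved between the builds.

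The genes and lists were chosen with earlier results of these data known. Genes named were drawn from a rule: Ucp1, Adipoq and Lep, the 12 largest changes in each direction among named genes with at least 10 RPKM in the higher group, in each list the largest change and the 3 highest levels, the 10 highest levels of each group, and up to 3 list members called against the rest. Adrb1, Atpif1, Bmp8b, Cebpd, Cox4i2, Dio2, Dusp1, Gata6, Gatm, Hoxa4, Igf1, Klf2, Ndufb4, Ndufs5, Nnt, Nr4a2, Ppargc1a, Prdm16, Retn, Sdha and Tbx15 were added after their values were seen. The iWAT samples entered no test.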

Additional observations from a re-analysis of the deposited data

Results flagged for a closer look

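In 38 of 272 group values examined, 1 sample lay apart from the other 5 by Dixon's test at the 95% level, where chance alone gives about 1 in 20 (13.6). Many of these were in eWAT replicate 15, which had 3160 RPKM of summed macrophage markers, Lyz2 at 1320 RPKM, Cd68 at 305.8 RPKM, Mmp12 at 344.6 RPKM, Cxcl2 at 233.1 RPKM, Tnf at 72.55 RPKM, Il10 at 37.0 RPKM, Il7r at 31.51 RPKM and Cxcl14 at 3.506 RPKM, each the highest of eWAT. The same replicate was the highest for Hspa5 at 267.2 RPKM, Atpif1 at 22.32 RPKM, Gatm at 9.965 RPKM and Acot11 at 1.098 RPKM. It was the lowest for Cav1 at 877.6 RPKM, Adrb3 at 46.14 RPKM, Hoxc8 at 31.41 RPKM and Mcam at 68.1 RPKM.

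In eWAT replicate 14, Elovl3 at 0.2 RPKM, Slc25a48 at 0.1782 RPKM, Ndufb4 at 6.619 RPKM and Tnnc2 at 0.8135 RPKM were the highest of eWAT, and in eWAT replicate 8 the single read of Zic1 gave 0.00524 RPKM.

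BAT replicate 12 had 2324 RPKM of summed skeletal muscle markers, with Atp2a1 at 281.6 RPKM and Tnnc2 at 185.8 RPKM, and the highest BAT values of Tbx15 at 3.061 RPKM, Aldh1a1 at 8.814 RPKM and Nnt at 1.449 RPKM. BAT replicate 7 was the highest of BAT for Adipoq at 393.9 RPKM, Cfd at 469.8 RPKM, Igfbp4 at 5.569 RPKM and Fosb at 1.194 RPKM, and held the single read of Hoxc9 at 0.01344 RPKM. BAT replicate 11 was the highest for Dio2 at 30.54 RPKM, Ppargc1a at 19.41 RPKM and Mrps6 at 43.15 RPKM. BAT replicate 8 was the highest for Cxcl2 at 0.2535 RPKM and held the single read of Upk3b at 0.01061 RPKM. What sets these samples apart was not tested.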

How the results depend on the processing

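The split between the directions depended on scaling. Against 6455 genes higher in eWAT and 6069 in BAT, no TMM gave 10552 and 2950, limma on log2(RPKM + 0.1) gave 10478 and 3061, and on log2(RPKM + 1) 10366 and 3000. Fewer genes could be tested with identical rows (3208 called of 4648, 1588 in eWAT and 1620 in BAT) or with eWAT transcripts of at least 80% of the BAT length (6547 of 9438, 3286 and 3261), and a minimum of 2-fold left 7480 of the 12524 calls (3891 and 3589). DESeq2, RLE factors, the transcript with the highest RPKM, both low-count settings, no length correction, the removed length trend and the omission of libraries kept the totals in each direction within 1.5 times. The share of the 100 highest genes kept its sign and call in every alternative (-24.96 to -11.44 percentage points).

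The title numbers, 4 of which occur in both groups, were not used to pair the samples in the main fit. The labels do not say what these numbers mark. Same-numbered eWAT and BAT samples had r of -0.15 to 0.06, and 0 of the eWAT samples correlated best with their own number. Whether same-numbered samples came from the same animal was not tested. The fit with the title number as a block called 11169 genes, 5728 in eWAT and 5441 in BAT. In that fit the value of Gatm was -0.55 in place of 1.04.

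Among 125 genes followed singly, other values changed direction together with a call or a lost call. Bmp8b was -0.63 without length correction and -0.54 with the length trend removed, and Atp5g3 was -0.066 without length correction. Ndufs5 was 0.51 and 0.47 with limma at the smaller and larger pseudocount and 0.52 without TMM. Pparg was 0.41, 0.40 and 0.43 in these fits and 0.024 among transcripts of at least 80% of the BAT length. Of 90 list counts, 40 moved by more than 1.5 times without TMM and 15 without length correction. The causes were not tested. Transcripts with few reads, such as Zic1 and Hoxc9 in the lower group, limit what depth can show there.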
